A study of Mus musculus with 6 samples.

Results

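The 10 genes described here encode mouse liver enzymes that reduce carbonyl, quinone and enone groups, together with the aldehyde oxidases, and were taken by symbol from a table of 24411 genes. They are the carbonyl reductase genes Cbr1 and Cbr3, the quinone oxidoreductase genes Nqo1 and Nqo2, the aldehyde oxidase genes Aox1 and Aox3, the aldo-keto reductase genes Akr1a1, Akr1c6 and Akr7a5, and the prostaglandin reductase gene Ptgr1, and all 10 were found. Livers of 3 p62+/+ and 3 p62S351E/+ mice were compared at postnatal day 19 by RNA-seq after depletion of ribosomal RNA. p62S351E/+ mice are heterozygous for a knock-in that replaces Ser351 of p62, which the gene Sqstm1 encodes, by Glu to mimic phosphorylation, and the other allele is wild type. p62+/+ mice carry no knock-in allele. The allele was made by prime editing in RENKA4, an ES cell line derived from C57BL/6N, and reached the heterozygotes through the sperm of a single male chimera, so all p62S351E/+ animals descend from one founder. The knock-in is present in every tissue and the mice grow poorly, so an effect within the liver and an effect of the animal's condition cannot be told apart. The labels give no sex and no batch.

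p62 binds KEAP1, the adaptor that otherwise hands the transcription factor NRF2 to the proteasome, and phosphorylation in the KEAP1-binding region of p62 strengthens this binding. NRF2 acts through antioxidant response elements, and genes of carbonyl and quinone reduction, above all Nqo1, are among its textbook targets. Most of the reductases use NADPH or NADH to turn reactive aldehydes, ketones and quinones into alcohols and hydroquinones. Nqo2, which takes its electrons from dihydronicotinamide riboside, and Ptgr1, which reduces a double bond, are exceptions. Aldehyde oxidases are molybdenum enzymes that oxidize aldehydes and N-heterocycles and can also reduce some nitrogen compounds.

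The stretches of DNA before the transcription starts of Cbr1, Cbr3, Nqo1 and Aox1 are shown because these 4 genes had the largest transcript differences among the 10. Coordinates and sequence are from RefSeq on GRCm38.p6, 5′ to 3′ on the strand of the gene, and all 10 genes matched a promoter window in that table. They lie at chr16:93607587-93607836 (Cbr1, plus strand), chr16:93682969-93683218 (Cbr3, plus strand), chr8:107403206-107403455 (Nqo1, minus strand) and chr1:58029719-58029808 (Aox1, plus strand). Capitals mark matches on either strand to the AP-1 motif TGACTCA, to the GC box written as GGGCGG or to the TATA box written as TATAAA.
Cbr1: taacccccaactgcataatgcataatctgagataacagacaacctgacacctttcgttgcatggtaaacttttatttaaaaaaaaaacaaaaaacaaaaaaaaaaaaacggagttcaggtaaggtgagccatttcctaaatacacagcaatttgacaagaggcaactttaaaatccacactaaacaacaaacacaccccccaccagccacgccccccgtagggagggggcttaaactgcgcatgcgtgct
Cbr3: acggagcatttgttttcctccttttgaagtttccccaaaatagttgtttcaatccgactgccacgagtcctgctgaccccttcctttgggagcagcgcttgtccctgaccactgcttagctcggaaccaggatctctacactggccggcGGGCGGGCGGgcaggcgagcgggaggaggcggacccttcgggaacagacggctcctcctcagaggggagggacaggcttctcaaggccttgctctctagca
Nqo1: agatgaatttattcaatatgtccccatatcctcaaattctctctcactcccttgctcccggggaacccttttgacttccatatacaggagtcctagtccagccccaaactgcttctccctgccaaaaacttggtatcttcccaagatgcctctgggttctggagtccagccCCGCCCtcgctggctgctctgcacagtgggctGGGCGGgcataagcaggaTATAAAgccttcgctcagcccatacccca
Aox1: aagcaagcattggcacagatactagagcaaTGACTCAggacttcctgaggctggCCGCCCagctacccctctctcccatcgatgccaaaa

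The core of the antioxidant response element was searched as TGACNNNGC on both strands, in windows from 250 bases before to 50 bases after each RefSeq start. It was in 0 of the 11 windows of the 10 genes and in 12.4% of 32851 windows of all genes. The looser TGANNNNGC was also in 0 of the 11, against 41.3% of all windows. The Aox1 stretch has 90 bases because it stops where the longest RefSeq gene model begins, upstream of the start on which its window is set. The AP-1 motif TGACTCA was in 1 window, that of Aox1, 220 bases before that later start, and in 5.2% of all windows. The GC box GGGCGG was in windows of 6 of the 10 genes (35.7% of all windows), and in Cbr3 its 2 printed copies overlap. Nqo1 had TATAAA 29 bases before its start, and Akr1c6 had it too (13.6% of all windows). The Cbr1 window held none of the motifs searched. A match describes letters only, and no match says only that these letters are not in this window.

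The table holds expected counts, which are read numbers per gene estimated by RSEM. Their totals per mouse lay between 8696712 and 10341622. Only 1.31% to 3.30% of them, 134911 to 315436 counts, fell outside the 3 RNA-rich genes Rn45s, Lars2 and Mir6236, so genes with few counts were imprecise. Of 10 hepatocyte markers, 9 were detected in all 6 libraries (Ass1 was not), and their summed normalized counts were 12755 to 14103 in p62+/+ livers, against 20244, 31499 and 14122 in p62S351E/+ mice 1, 2 and 3. Libraries stood apart in a list of 10 brain markers, whose summed counts were 2186 to 2563 in p62+/+ mice and 20, 31 and 2364 in the libraries of p62S351E/+ mice 1, 2 and 3. Snap25, Stmn2, Gfap and Camk2a were at 0 in both p62S351E/+ mice 1 and 2. Summed normalized counts of Kupffer cell markers were 71.4 to 76.9 in p62+/+ and 89.1 to 110 in p62S351E/+ mice, and those of erythroid markers were 136 to 194 and 56.2 to 133. Those of endothelial, stellate and bile duct markers overlapped between the genotypes. Xist had 70.8, 1505 and 1071 counts in p62+/+ and 1, 0 and 1537 in p62S351E/+ libraries, and its part in the results was not tested beyond its use as a covariate. In whole liver, fewer cells of a type and less RNA per cell cannot be told apart.

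Among the carbonyl reductases, Cbr1 rose in p62S351E/+ livers. The gene (chr16:93607837-93610349, plus strand, 3 exons) encodes the main cytosolic carbonyl reductase, which reduces quinones, prostaglandins and drug ketones. Its normalized counts (expected counts scaled by edgeR's TMM factors to a common library size) were 16.9, 13.2 and 12.96 in the livers of p62+/+ mice 1, 2 and 3, against 202, 183 and 155 in those of p62S351E/+ mice 1, 2 and 3. Later values are given in the same order. Every p62S351E/+ mouse was far above every p62+/+ mouse. Means were 14.3 ± 2.19 and 180 ± 23.6 (SD, n = 3 each). This is a 12.4-fold rise, with a log2 fold change of 3.64 ± 0.24 (here and later with its SE) and an adjusted p of 0.000457 by edgeR's quasi-likelihood test. Reads were 15 to 21 in p62+/+ and 106 to 200 in p62S351E/+ libraries.

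Cbr3 (chr16:93683219-93690991, plus strand, 3 exons) lies 72.9 kb beyond Cbr1 and encodes a close relative with a narrower set of substrates. It had 1, 1 and 0 expected counts in p62+/+ livers against 26, 39 and 58 in p62S351E/+ livers, or 0.80, 0.78 and 0 against 49.5, 49.1 and 44.9 normalized counts. Cbr3 thus went from the detection limit to a level that differed little among the p62S351E/+ mice. It rose by a log2 fold change of 6.19 ± 0.59 (adjusted p = 0.000457 by edgeR's quasi-likelihood test). With 2 p62+/+ counts in all, the fold is loosely bounded: the ratio of summed counts was 87.0 with an exact 95% interval from 23.6 to 726, which covers counting error only. DESeq2 gave no adjusted p for it. In counts not scaled for the library, the protein-coding genes on either side overlapped between the genotypes. Setd4 before Cbr1 had 0 to 4 against 3 to 5 counts, and Dop1b beyond Cbr3 had 24 to 32 against 17 to 48. Whether either differs after scaling was not tested here.

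Neither quinone reductase passed the test, although Nqo1 had one of the largest differences among the 10 genes. Nqo1 (chr8:107388225-107403205, minus strand, 6 exons), which reduces quinones by a pair of electrons at once to hydroquinones, had 0.80, 1.55 and 6.05 normalized counts in p62+/+ livers against 68.6, 41.6 and 22.5 in p62S351E/+ livers. The genotypes did not overlap, but both groups were spread widely, and p62S351E/+ mouse 3 was the lowest of its group as p62+/+ mouse 3 was the highest of the other. The log2 fold change was 3.93 ± 0.71 and missed the threshold (adjusted p = 0.067 by edgeR's quasi-likelihood test). The counts behind it were 1, 2 and 7 against 36, 33 and 29, a ratio of 13.9 (exact 95% interval 7.23 to 29.8, counting error only). Nqo1 passed in 6 of 19 alternative fits, among them the fit without p62S351E/+ mouse 3 (log2 fold change 4.26, adjusted p = 0.000226 by edgeR), that without p62+/+ mouse 3 (5.07, adjusted p = 0.0267) and the unfiltered table (3.88, adjusted p = 0.0411). Over the 19 fits its log2 fold change was 2.96 to 5.07. Its adjusted p was 0.000226 to 0.322 in the fits that gave one, and DESeq2 gave none.

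Nqo2 (chr13:33964655-33988465, plus strand, 7 exons), a related quinone reductase that takes its electrons from dihydronicotinamide riboside, had 13.6, 17.1 and 14.7 normalized counts in p62+/+ livers against 28.6, 13.9 and 24.0 in p62S351E/+ livers. The groups overlapped through p62S351E/+ mouse 2, and the log2 fold change of 0.54 ± 0.33 did not pass (adjusted p = 0.468 by edgeR). Exons of Nqo2 overlap those of Serpinb6a on the opposite strand, and the strand used in counting is not given in the sources used here. Its counts were whole in all 6 libraries, with no fraction from reads divided between the pair, but whether antisense reads were counted for Nqo2 cannot be told from whole counts.

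**Figure D1:**
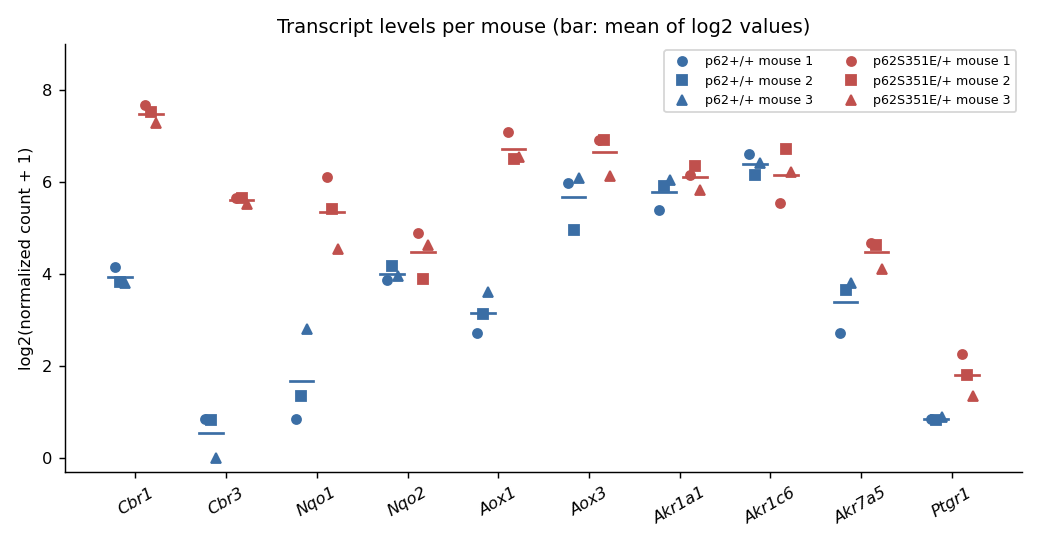
Normalized counts of the 10 genes in each of the 6 mice, as log2(normalized count + 1) on the vertical axis, with p62+/+ mice in blue, p62S351E/+ mice in red, a marker shape per mouse number and bars at the mean of the log2 values. Cbr1, Cbr3, Nqo1 and Aox1 show a wide gap between the genotypes, and Nqo2, Akr1a1 and Akr1c6 overlap.

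The aldehyde oxidases lie side by side on chromosome 1, Aox1 at chr1:58029809-58106410 and Aox3 at chr1:58113135-58202221, both on the plus strand with 35 exons, and are 6.7 kb apart. Aox1, which encodes a broad cytosolic aldehyde oxidase, had 5.62, 7.76 and 11.2 normalized counts in p62+/+ livers against 135, 89.4 and 92.2 in p62S351E/+ livers. No p62S351E/+ value came near the p62+/+ values. Aox1 rose by a log2 fold change of 3.67 ± 0.32 (adjusted p = 0.00197 by edgeR's quasi-likelihood test), or 12.7-fold, close to the fold of Cbr1. Aox3, its neighbour and another aldehyde oxidase of mouse liver, had 61.8, 30.3 and 67.4 normalized counts in p62+/+ livers against 120.0, 119.7 and 69.7 in p62S351E/+ livers. Its groups did not overlap in normalized counts, but p62S351E/+ mouse 3 exceeded p62+/+ mouse 3 only narrowly. Before scaling they did overlap, with 77, 39 and 78 against 63, 95 and 90 counts. The log2 fold change was 0.95 ± 0.35 (adjusted p = 0.282 by edgeR). Without p62S351E/+ mouse 3 it was 1.17 and passed (adjusted p = 0.0147 by edgeR). Scaling by library size only gave 0.18 and scaling to the hepatocyte markers 0.32, and neither passed. Aox4 and Aox2, which follow in the same cluster, had at most 1 and 0 counts in any library. Sgo2a, the protein-coding gene before Aox1, had 2 to 6 counts in p62+/+ and 0 in every p62S351E/+ library.

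None of the 3 aldo-keto reductase genes passed the test. They lie at chr4:116636510-116651674 (Akr1a1, minus strand), chr13:4434311-4457530 (Akr1c6, plus strand) and chr4:139310720-139318786 (Akr7a5, plus strand), and Ptgr1 lies at chr4:58965590-58987131 on the minus strand. Akr1a1, the aldehyde reductase that also serves ascorbate synthesis in mice, had 40.9, 59.8 and 64.8 normalized counts in p62+/+ livers against 70.5, 80.6 and 55.8 in p62S351E/+ livers (log2 fold change 0.32 ± 0.25, adjusted p = 0.564 by edgeR). Akr1c6, a hydroxysteroid dehydrogenase of mouse liver, had 96.3, 70.6 and 84.6 in p62+/+ livers against 45.7, 105 and 73.6 in p62S351E/+ livers (log2 fold change -0.16 ± 0.30, adjusted p = 0.813 by edgeR). Both overlapped between the genotypes, and p62S351E/+ mice 1 and 2 held the lowest and the highest Akr1c6 value of all 6. Akr7a5, an aflatoxin aldehyde reductase, had 5.62, 11.6 and 12.96 in p62+/+ livers against 24.8, 23.9 and 16.3 in p62S351E/+ livers. The Akr7a5 groups did not overlap in normalized counts but did before scaling, with 7, 15 and 15 against 13, 19 and 21 counts. Its log2 fold change of 1.08 ± 0.38 did not pass (adjusted p = 0.27 by edgeR). Without p62S351E/+ mouse 3 it did (1.26, adjusted p = 0.0369 by edgeR). Scaling by library size only gave 0.37 and scaling to the hepatocyte markers 0.45, and neither passed. Ptgr1, which reduces the double bond of prostaglandin and leukotriene enones and of lipid alkenals, had 1 count in each p62+/+ and 2 counts in each p62S351E/+ library. It did not pass the filter on low counts, and at no more than 3 counts a library its difference was not detectable at this depth.

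Of the 10 genes, 9 were tested, 3 were called higher (Cbr1, Cbr3 and Aox1) and 0 lower, where a call needs an adjusted p below 0.05 together with a log2 fold change beyond 1 in either direction. Over all 5945 genes tested, 0.841% were called higher and 0.0841% lower. At an unadjusted p under 0.05, and by DESeq2 and limma-voom with the adjusted threshold, 0 of the 9 were lower too. In normalized counts, 6 of the 9 were higher in every p62S351E/+ than in every p62+/+ mouse, against 12% of all genes tested. Among the 6 were Aox3 and Akr7a5, whose groups overlapped before scaling. Log2 fold changes above 0 were found for 8 of the 9, against 48% of all. Their median was 1.08, and that of all genes tested was -0.03. Cbr3 and Nqo1 reached 10 counts in 0 of 3 p62+/+ libraries and Aox1 and Akr7a5 in 2 of 3. Cbr3 and Nqo1 thus entered the test through the p62S351E/+ mice and had to differ. Aox1 and Akr7a5 also needed p62S351E/+ libraries to enter it. These counts and the median are therefore a description only. All 10 genes had whole-number counts in all 6 libraries (within 0.005), with no fraction from reads divided among genes by RSEM.

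The 3 calls were compared with the brain-marker and hepatocyte-marker differences between libraries. In p62S351E/+ mouse 3, the brain-marker sum was 2364 counts, or 1831 normalized counts against 1888 to 1990 in the p62+/+ mice. With this mouse alone against the p62+/+ mice, the log2 fold changes were 3.43 for Cbr1, 6.14 for Cbr3, 3.50 for Aox1 and 3.01 for Nqo1. A group of 1 mouse has no spread of its own, so effect sizes only are given. Cbr3 and Nqo1 reached 10 counts in 0 of 3 p62+/+ libraries and so entered this fit through that mouse. With libraries scaled to the hepatocyte markers, the log2 fold changes were 3.06 for Cbr1, 5.66 for Cbr3 and 3.11 for Aox1 and still passed, while those of Akr1a1 and Akr1c6 were -0.31 and -0.78. Of the 9 genes, 6 were called higher without p62S351E/+ mouse 3 (Cbr1, Cbr3, Nqo1, Aox1, Aox3 and Akr7a5), in a fit that called 329 of 6390 genes higher and 976 lower. With Xist as a covariate, Cbr1, Cbr3 and Aox1 were the genes called. The part of the other marker lists in these values was not tested.

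**Figure D2:**
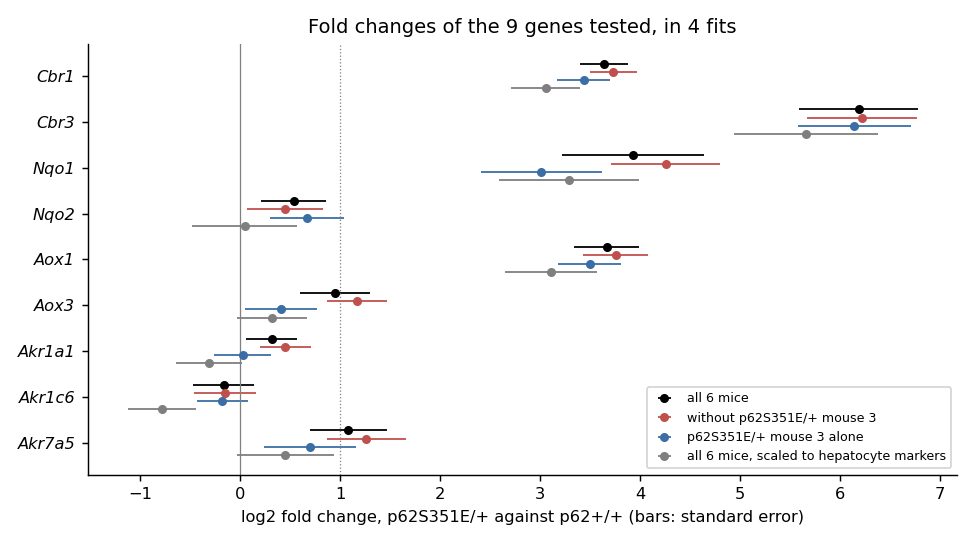
Log2 fold changes of p62S351E/+ against p62+/+ mice for the 9 genes tested, on the horizontal axis, with standard errors as bars, a solid line at 0 and a dotted line at 1, in 4 fits that differ in the mice used or in the scaling. Cbr1, Cbr3, Nqo1 and Aox1 stay to the right of 2 in all 4 fits, and Akr1a1 changes sign between them.

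Within each pair of paralogs, the balance was read as the share of one gene in the pair's counts, which does not depend on how a library was scaled. Cbr3 made up 4.55%, 5.56% and 0% of the Cbr1 and Cbr3 counts in p62+/+ livers against 19.7%, 21.2% and 22.5% in p62S351E/+ mice. Nqo1 made up 5.56%, 8.33% and 29.2% of the Nqo1 and Nqo2 counts in p62+/+ livers against 70.6%, 75% and 48.3% in p62S351E/+ mice. Aox1 made up 8.33%, 20.4% and 14.3% of the Aox1 and Aox3 counts in p62+/+ livers against 53.0%, 42.8% and 56.9% in p62S351E/+ mice. The share was higher in every p62S351E/+ mouse for all 3 pairs. Cbr3, Nqo1 and Aox1 were themselves far higher in p62S351E/+ mice, and the genes were chosen with earlier results known. The shares and their test largely restate those differences and are a description only. Mean log2 ratios of normalized counts + 0.5 differed by 2.08, 3.49 and 2.64 in that order. The first depends on the number added, because Cbr3 was near 0 in p62+/+ mice, and was 3.16 with 0.1 and 0.84 with 2 in place of 0.5. Each had p = 0.1 in a two-sided exact permutation test (0.1 after adjustment over the 3 pairs), the smallest that 3 against 3 mice allow.

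**Figure D3:**
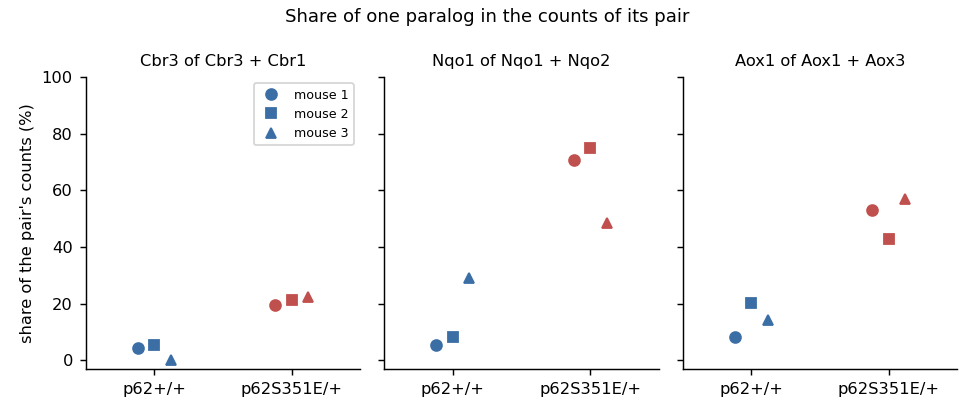
Share of the first gene in the counts of its pair, in percent on the vertical axis, for Cbr3 with Cbr1, Nqo1 with Nqo2 and Aox1 with Aox3, with a marker per mouse. The p62S351E/+ mice, in red, lie above all p62+/+ mice, in blue, in each panel.

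Levels of different genes were compared as normalized counts per kilobase of the longest RefSeq transcript. In p62+/+ livers Akr1c6 was highest at 60.1 ± 9.21 (SD, n = 3), followed by Akr1a1 at 38.8 ± 8.85, and neither overlapped with its next neighbour. Cbr1 at 11.6, Aox3 at 11.5, Akr7a5 at 7.82 and Nqo2 at 3.94 followed, and neighbours in this order overlapped. Aox1 at 1.85, below every Nqo2 value, Nqo1 at 1.80, Cbr3 at 0.45 and Ptgr1 at 0.35 closed the order and also overlapped as neighbours. In p62S351E/+ livers Cbr1 led at 145 ± 19.1 (SD, n = 3), with its lowest mouse at 125 above the highest Akr1c6 value of 74.9. Akr1c6 at 53.5, Akr1a1 at 48.6, Cbr3 at 40.9, Nqo1 at 28.5, Aox1 at 23.9, Aox3 at 22.4 and Akr7a5 at 16.8 followed, each overlapping with the next. Nqo2 at 5.76 and Ptgr1 at 1.14 stood below, separated from their neighbours.

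Cbr1 made up 6.89% to 10.05% of the summed level per kilobase of the 10 genes in p62+/+ livers against 35.4% to 39.1% in p62S351E/+ mice. Akr1c6 went from 39.8% to 50.9% down to 7.85% to 17.9%, and Akr1a1 from 21.3% to 33.1% down to 11.9% to 13.6%. Such shares fall by arithmetic as others grow. In p62S351E/+ mouse 1, with the lowest Akr1c6 share, the level of Akr1c6 was also lower, at 32.7 per kilobase against 50.6 to 69.0 in p62+/+ mice. Mice 2 and 3 of that genotype were at 74.9 and 52.7. Cbr3 made up at most 0.52% in p62+/+ livers against 10.1% to 11.8% in p62S351E/+ mice. The 10 genes together took 918 to 1175 CPM, with Rn45s, Lars2 and Mir6236 left out of the total, in p62+/+ livers against 2273 to 2913 CPM in p62S351E/+ livers.

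**Figure D4:**
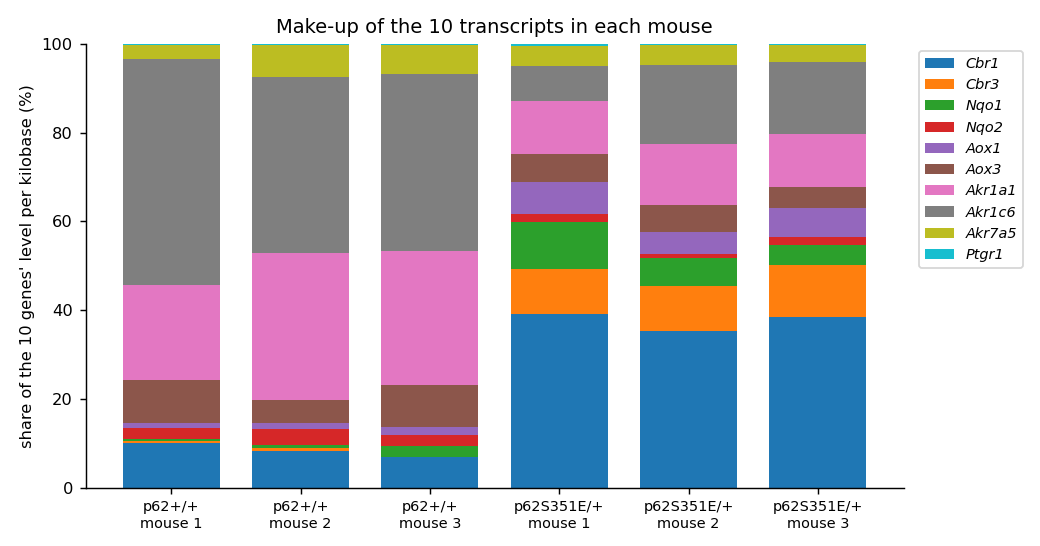
Stacked shares, in percent, of the 10 genes in their summed normalized count per kilobase, 1 bar per mouse and 1 colour per gene. Cbr1 takes 35.4% to 39.1% of the bar in p62S351E/+ mice and 6.89% to 10.05% in p62+/+ mice.

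The genes whose pattern over the 6 libraries was most like that of Cbr1, by the root mean square difference of log2 CPM values centred on the p62+/+ mean, were Ces1g (0.18), Gstm1 (0.19), Abcc3 (0.30), Aox1 (0.36) and Abcc4 (0.39). Ces1g is a carboxylesterase, Gstm1 a glutathione S-transferase whose counts were whole in 0 of 6 libraries, so that its reads were divided with other genes, and Abcc3 and Abcc4 are efflux transporters. Of the other genes described here, Cbr3 ranked 12 and Nqo1 13, whereas Akr7a5 ranked 190 and Aox3 213 among the genes tested. Nqo2 ranked 1000, Akr1a1 1386 and Akr1c6 3595.

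Related enzymes were read from 6 lists of 64 genes in all, of which 33 were tested, 3 were called higher and 0 lower, with a median log2 fold change of 0.41 against -0.03 for all genes tested. Over all genes tested, 0.841% were called higher and 0.0841% lower. These counts and the median are a description only. Among 11 other carbonyl reductases, 3 were tested and 1 rose. This was Hsd11b1, which regenerates active glucocorticoid from its 11-keto form, with 64.2, 83.1 and 58.7 normalized counts in p62+/+ livers against 179, 227 and 146 in p62S351E/+ livers (log2 fold change 1.42 ± 0.25, adjusted p = 0.0456 by edgeR). Dhrs3, a retinal reductase, had a log2 fold change of 0.41 and did not pass. Among 13 other aldo-keto reductases, 4 were tested and 1 was called higher. This was Akr1c19, with 4, 0 and 1 counts in p62+/+ livers against 13, 20 and 26 counts in p62S351E/+ livers (log2 fold change 3.99 ± 0.75, adjusted p = 0.0488 by edgeR). It reached 10 counts in 0 of 3 p62+/+ libraries, so like Cbr3 and Nqo1 it entered the test through the p62S351E/+ mice and had to differ. Akr1c14, a steroid reductase, and Akr1d1, the steroid 5-beta-reductase of bile acid synthesis, had log2 fold changes of 0.91 and 1.26 and did not pass.

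Among 9 other quinone, enone and pteridine reductases, 5 were tested and 1 rose, Blvrb, a flavin and biliverdin reductase. It had 11.2, 14.0 and 10.4 normalized counts in p62+/+ livers against 68.6, 65.5 and 40.3 in p62S351E/+ livers, without overlap (log2 fold change 2.27 ± 0.29, adjusted p = 0.0114 by edgeR). Qdpr, which recycles tetrahydrobiopterin, had -0.65 and did not pass. None of 7 tested molybdoenzyme and molybdenum cofactor genes of 11 passed. Their log2 fold changes included 0.52 for Xdh, the xanthine oxidoreductase, and 0.75 for Marc2, a mitochondrial amidoxime reductase. None of 6 tested electron-transfer partners of 10 passed either, Por, the electron donor of microsomal P450 enzymes, at 0.68 and Cyb5a, cytochrome b5, at 1.03. Of the p62-KEAP1-NRF2 core, 8 of 10 genes were tested and 0 passed, with log2 fold changes of 0.30 for Sqstm1 and -0.50 for Nfe2l1, an NRF2 relative. Sqstm1, the edited gene, had 77.9, 73.0 and 86.4 normalized counts in p62+/+ livers against 104.7, 97.0 and 89.9 in p62S351E/+ livers, and gene counts do not show the substituted codon. Of the related genes, Blvrb was the one still called higher without p62S351E/+ mouse 1 or without mouse 2. When any 1 of the p62+/+ mice was left out, 0 of the 64 were called higher. Over all genes tested, calls higher went from 50 of 5945 to 18 of 6453, 16 of 6534 and 20 of 6509 in these fits. Without p62S351E/+ mouse 3, 7 of the 64 were called higher, in a fit that called 329 of 6390 genes higher.

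**Figure D5:**
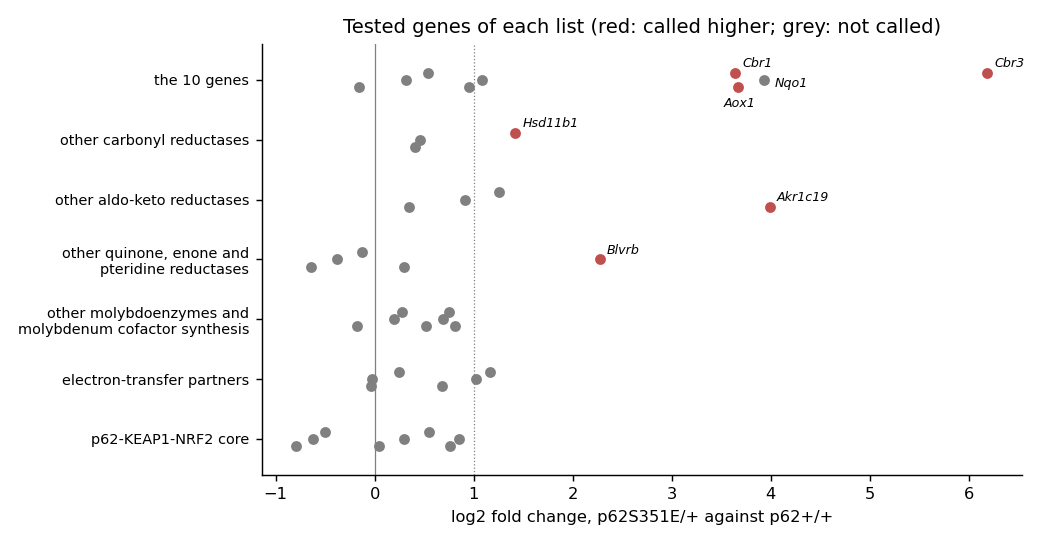
Log2 fold changes of p62S351E/+ against p62+/+ mice, on the horizontal axis, for every tested gene of the 10 and of the 6 lists of related genes, 1 point per gene, red where called higher and grey where not, with a dotted line at 1. Red points are Cbr1, Cbr3 and Aox1 among the 10 and Hsd11b1, Akr1c19 and Blvrb among the related genes.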

How the data were processed

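Liver RNA of 3 p62+/+ and 3 p62S351E/+ mice was depleted of ribosomal RNA and sequenced as single-end reads. The authors mapped reads to mm10 with STAR and deposited expected counts per gene estimated by RSEM, without normalization. Tool versions, gene annotation and strand setting are not given in the sources used here. Groups and replicate numbers came from the labels. The same number in both genotypes names different animals.

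Expected counts were rounded and fitted in R 4.3.3 with edgeR 4.0.16 (filterByExpr, minimum count 10, TMM, robust quasi-likelihood fit with legacy set to FALSE). Benjamini-Hochberg adjustment covered all 5945 genes tested. The SE was obtained by dividing the size of a log2 fold change by √F. Depth, the expected counts outside Rn45s, Lars2 and Mir6236, was 134911 to 315436 per mouse. A floor of 3 counts was used. Alternatives were DESeq2 1.42.0, limma-voom (limma 3.58.1), the legacy method, other scalings, filters and thresholds, covariates and leaving out mice. Scaling to hepatocyte markers and the AP-1, GC box and TATA box motifs were added after seeing the data. The fits were tested on simulated counts.

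Named were all 10 genes, the called and the 2 most abundant genes of each related list, and the 5 genes most like Cbr1. Genes and lists were chosen with earlier results of these data known. Positions are those of RefSeq on GRCm38.p6, the build of mm10. Protein sequences were not analysed here.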

Additional observations from a re-analysis of the deposited data

How the results depend on the processing

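Cbr1 passed in 20 of 20, Aox1 in 19 of 19 and Cbr3 in 18 of 19 alternative fits, and DESeq2 gave no adjusted p for Cbr3, Nqo1, Nqo2 and Akr7a5. Aox1 and Cbr3 had 19 because they could not be tested where 10 counts were required in every library. Cbr3 reached 10 counts in 0 of 3 p62+/+ libraries. In the other filtered fits it entered through p62S351E/+ mice and had to differ, so its tally is a description only. Aox3 and Akr7a5 passed in 1 each, without p62S351E/+ mouse 3, and Nqo2, Akr1a1 and Akr1c6 in none. The number of the 10 genes called higher was 3 to 6 when mice were left out in turn, with 6 without p62S351E/+ mouse 3, and 1 when at least 10 counts were required in every library, where 5 could be tested. The log2 fold change changed sign for Nqo2 (-0.12) and Akr1a1 (-0.38) with library size only, for Akr1a1 (-0.31) with hepatocyte-marker scaling, and for Akr1c6 (-0.47 to 0.093 when mice were left out in turn, the latter without p62S351E/+ mouse 1). The cause was not tested. Library size only and hepatocyte-marker scaling moved the median of all genes to -0.68 and -0.60, and 0 of the 10 were called lower in any of 22 alternatives. DESeq2 and the unfiltered fit put it at -0.18 and -0.16.

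Of the 64 related genes, 1 was called higher with DESeq2 size factors in edgeR, 1 with the Xist covariate, 0 with library size only, 0 with hepatocyte-marker scaling and 0 at an adjusted p below 0.01. Leaving out mice gave 0 to 7 higher and 0 to 1 lower, the latter being Qdpr without p62S351E/+ mouse 3. Over all genes tested, these fits called 16 to 329 genes higher and 1 to 976 lower. With the replicate block, 3 of the 10 genes and 1 related gene were called higher. Same-numbered mice did not deviate together (correlations of 0.08, -0.09 and -0.00), so the numbers were not taken as pairs. The block gave 20 higher and 2 lower genes in the whole table, against 50 and 5. Without p62S351E/+ mouse 3 there were 329 and 976, and library size only gave 12 and 2, hepatocyte-marker scaling 11 and 5, limma-voom 131 and 12, and the demand for 10 counts in every library 70 and 29. The paralog ratios kept their direction in all 8 alternatives of each pair, and that of Cbr3 to Cbr1 went from 0.84 to 3.16 with the number added. Of 20 levels per kilobase, 9 moved by more than 1 SD with library size only.

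With 3 mice a genotype and 134911 to 315436 counts outside Rn45s, Lars2 and Mir6236, the precision of low genes such as Cbr3, Nqo1 and Ptgr1 is limited by their counts. The labels give neither sex nor batch.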
